A study of Mus musculus with 9 samples.

Results

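The 7 genes described here encode 5 subunits of the GABA-A receptor and the 2 transporters that set the chloride gradient through which it acts. Gabra2, Gabra3 and Gabra5 encode alpha subunits, Gabrb2 a beta subunit and Gabrg1 a gamma subunit. Slc12a2 encodes the chloride importer NKCC1, and Slc12a5 the chloride exporter KCC2. They were taken by name, as 7 of the 21536 genes counted, and followed over groups of mouse trigeminal neurons. The animals were FVB/N mice of wild type genotype, aged 3 to 6 weeks by the labels (3 to 5 by the methods) and of both sexes, whose trigeminal ganglia were dissociated, enriched for neurons and read by Drop-seq in 9 runs, each with cells pooled from many animals. Drop-seq captures the polyadenylated RNA of single cells on barcoded beads and counts unique molecular identifiers (UMIs), 1 for each captured transcript. No treatment or genotype was compared, so the question put to the data was in which kinds of sensory neuron each gene was found.

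Neurons were picked cell by cell: 500 to 7500 genes, a UMI of 3 or more of Tubb3, Scn9a, Snap25, Nefl, Nefm and Uchl1, and no UMI of Epcam. Of 6997 barcodes 3855 met this rule. Each neuron was then placed in the first group whose condition it met. The conditions, in order, were 2 or more UMIs of Trpm8 (a cold-activated channel, 244 neurons), 2 or more of Mrgprd (a receptor of unmyelinated nociceptors, 379), 1 or more of Mrgpra3 (an itch receptor, 49), 2 or more of Nppb (an itch neuropeptide, 57), 1 or more of Cd34 (320), 5 or more of Nefh without Trpv1 (a neurofilament of large myelinated neurons, 450), and 5 or more of Calca with Trpv1 (peptidergic, heat- and capsaicin-sensitive neurons, 916). These 2415 are called matched neurons, and 1440 neurons met no condition. The group names are the names of the genes that picked them.

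GABA-A receptors are chloride channels built of 5 subunits, most often alpha, beta and gamma subunits together. The alpha subunit shapes kinetics, the place of the receptor in the membrane and the response to benzodiazepines, and the gamma subunit takes part in benzodiazepine binding and in clustering at synapses. Most mature central neurons export chloride through KCC2, so that GABA hyperpolarizes them. Primary sensory neurons are known to import chloride through NKCC1, so that GABA depolarizes their terminals, a step in presynaptic inhibition of sensory input.

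The barcodes do not name the run they came from, so all cells had to be treated as 1 sample and there is no replicate check. Levels are given as UMIs of a gene per 1000000 UMIs of the group (CPM) with exact Poisson 95% intervals in parentheses, and ratios of 2 levels on the log2 scale with exact binomial intervals. Shares of neurons have exact Clopper-Pearson intervals. Where no cell of a group had a UMI, the share that 3 counts would give is named as the limit for cells with a UMI, which is not a limit for cells expressing the gene. All of these cover counting error only, and UMIs of 1 cell are not independent. A group is compared with the other matched neurons. Any pair of levels is called apart where the interval of their ratio leaves out 0 on the log2 scale, and a gene is called higher or lower in a group where its CPM was at least 2-fold above or below that of the other matched neurons. The call was made for the 8746 genes with 200 or more UMIs in matched neurons. Gabra2 (2141 UMIs), Slc12a2 (1395), Gabra3 (1004) and Gabra5 (323) were among them, while Gabrg1 (155), Gabrb2 (53) and Slc12a5 (4) were not, so that 4 of the 7 genes passed this minimum. Gabra5 reached 200 only through the Nefh neurons, where it was highest, with 133 UMIs outside them, so its values are given below without a call.

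The whole table holds 30491529 UMIs, with a median of 2031 per barcode (range 1000 to 190815). Median depth of the 7 groups ran from 3406 UMIs in Nppb neurons to 5835.5 in Cd34 neurons. Only 6 barcodes occurred more than once. Markers of each kind of neuron peaked in their own group for 5 of 5 Trpm8, 5 of 5 Nppb, 5 of 5 Cd34 and 6 of 6 Nefh markers, but for 4 of 5 Mrgprd, 4 of 5 Calca Trpv1 and 2 of 3 Mrgpra3 markers. Plxnc1 was the exception of the Mrgpra3 neurons and peaked in Mrgprd neurons. The exceptions of the Mrgprd and Calca Trpv1 neurons, Mrgprb5 and Kcnk18, both peaked in Mrgpra3 neurons. Of the markers that did peak in Mrgpra3 neurons, Mrgprx1 was at 9.28 CPM there, the level of 3 counts. Conditions overlapped in 349 neurons. Values are also given for 240 glia (median 1442 UMIs), 311 red blood cells (1394) and 546 pituitary cells (2408.5). Glia held Slc12a2 and pituitary cells Gabra2 and Slc12a5, so these cells are no gauge of free RNA for those genes.

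Gabra2 and Gabra3 were both highest in Cd34 neurons, and Gabra5 and Gabrg1 were both highest in Nefh neurons. The promoters of these 4 genes are shown for that reason, from 250 bases before to 50 bases after the start site, 5′ to 3′ on the coding strand, as RefSeq gives them for GRCm38.p6. The lines are Gabra2 (chr5:71095800-71096099, minus strand), Gabra3 (chrX:72656870-72657169, minus), Gabra5 (chr7:57510010-57510309, minus) and Gabrg1 (chr5:70842568-70842867, minus). Capitals mark CG dinucleotides.
Gabra2: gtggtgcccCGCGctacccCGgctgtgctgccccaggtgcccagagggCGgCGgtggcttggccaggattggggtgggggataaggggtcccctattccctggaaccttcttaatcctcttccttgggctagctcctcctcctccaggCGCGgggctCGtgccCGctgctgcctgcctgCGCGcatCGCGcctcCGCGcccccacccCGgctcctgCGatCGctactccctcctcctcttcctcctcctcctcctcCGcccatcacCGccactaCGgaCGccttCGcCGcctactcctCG
Gabra3: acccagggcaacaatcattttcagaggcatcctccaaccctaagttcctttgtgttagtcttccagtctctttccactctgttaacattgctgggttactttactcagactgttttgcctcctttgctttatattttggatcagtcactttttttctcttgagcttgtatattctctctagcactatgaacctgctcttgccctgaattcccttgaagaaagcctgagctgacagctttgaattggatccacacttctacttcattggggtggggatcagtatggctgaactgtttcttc
Gabra5: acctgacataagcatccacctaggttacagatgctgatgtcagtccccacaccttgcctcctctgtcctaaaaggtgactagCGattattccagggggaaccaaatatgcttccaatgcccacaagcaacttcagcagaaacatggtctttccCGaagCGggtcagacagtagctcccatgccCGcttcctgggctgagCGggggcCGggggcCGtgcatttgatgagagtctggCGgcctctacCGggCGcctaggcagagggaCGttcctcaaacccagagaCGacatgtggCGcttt
Gabrg1: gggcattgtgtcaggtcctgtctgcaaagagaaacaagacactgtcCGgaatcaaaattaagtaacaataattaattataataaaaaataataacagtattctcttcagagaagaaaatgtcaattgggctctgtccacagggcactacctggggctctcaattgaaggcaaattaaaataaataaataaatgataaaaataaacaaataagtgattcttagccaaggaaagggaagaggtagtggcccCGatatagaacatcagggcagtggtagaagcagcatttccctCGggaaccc
The Gabra2 window holds 25 CG dinucleotides and the Gabra3 window 0, against a median of 7 over 32851 mouse promoter windows, 5.43% of which hold none. The Gabra5 window holds 13 and the Gabrg1 window 3. Genes that peaked in the same group thus differed in CG content. The letters TATAAA occur on the reverse strand of the Gabra3 window and in none of the other 3 windows, on either strand. They occur on either strand of 13.6% of all windows. Gabrb2, which also peaked in Nefh neurons, has 3 windows in the table, none printed here, which hold 11, 9 and 9 CG dinucleotides, and 1 of them holds TATAAA on the forward strand. Gabrg1 (chr5, 70751047 to 70842617) and Gabra2 (chr5, 70957597 to 71095849) lie on the same strand of GRCm38 with 114979 bases between them.

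Gabra2, the alpha2 subunit, was the most widely found of the 5 receptor genes, with a UMI in 1114 of 3855 neurons. It stood at 253 CPM (235–271) in Cd34 neurons and at 203 (188–219) in Nefh neurons. Trpm8 neurons had 115 CPM (101–130) and Calca Trpv1 neurons 55.6 (49.2–62.7). Below them lay the Mrgprd neurons with 41.6 CPM (34.9–49.2), the Mrgpra3 neurons with 30.9 (14.8–56.9) and the Nppb neurons with 28.2 (12.2–55.5). Every step of this order was apart by counting error except those between the 3 lowest groups. The ratio to the other matched neurons was 1.41 on the log2 scale (1.28 to 1.54) in Cd34 neurons and 0.97 (0.83 to 1.10) in Nefh neurons, the latter just under the 2-fold call. A UMI of Gabra2 was seen in 68.4% of Cd34 neurons and 51.6% of Nefh neurons, and in 20.9% and 17.6% after each neuron was thinned to 1000 UMIs. None of 240 glia had a UMI (limit 1.25%), whereas 43 of 546 pituitary cells had a UMI, at 31.4 CPM (23.7–40.9). The levels in Mrgpra3 and Nppb neurons were not above that in pituitary cells.

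Gabra3, the alpha3 subunit, divided the groups more sharply. Cd34 neurons had 159 CPM (146–174), Trpm8 neurons 78.3 (66.8–91.1) and Calca Trpv1 neurons 51.5 (45.4–58.3). Nefh neurons, which were second for Gabra2, had 25.03 CPM (19.99–30.9). Mrgprd neurons had 6 UMIs in 379 cells, or 1.83 CPM (0.673–3.99), Mrgpra3 neurons 2 UMIs and Nppb neurons 1. The level in Cd34 neurons was at least 39.6 times that in Mrgprd neurons, by the lower limit of the ratio, which covers counting error only. The log2 ratio of Mrgprd neurons to the other matched neurons was −5.27 and ran from −6.42 to −4.15 over the settings run. All 6 of the Mrgprd UMIs were in different neurons, and the share of 1.58% (0.583–3.41) lay beside 1.25% (0.259–3.61) of the shallower glia, 1.10% of pituitary cells and 0 of 311 red blood cells. The part of free RNA in it was not tested. Neurons with UMIs of both Gabra2 and Gabra3 made up 43.4% of Cd34 neurons, 19.7% of Trpm8 neurons, 8.44% of Nefh neurons and 4.48% of Calca Trpv1 neurons, shares that also rise with depth.

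Gabra5, the alpha5 subunit, was highest in Nefh neurons, at 55.9 CPM (48.3–64.5), 5.87 times the level in the other matched neurons (4.68 to 7.39; log2 ratio 2.55). In neurons that met exactly 1 condition the log2 ratio was 3.43, and with each neuron weighing the same it was 3.21. Cd34 neurons had 19.1 CPM (14.5–24.6) and Trpm8 neurons 17.0 (11.9–23.5), and these 2 levels were not apart. A single Cd34 neuron held 17 of the 59 UMIs there, and Cd34 neurons that met no other condition had 3.99 CPM. Calca Trpv1 neurons had 5.54 CPM (3.65–8.07) and Mrgprd neurons 3.06 (1.47–5.62). Nppb neurons had 1 UMI in 57 cells and Mrgpra3 neurons none in 49 (limit 6.12%). Gabra5 lies on the minus strand of chromosome 7 (57407672 to 57510059). Whether reads were counted by strand is not given in the sources used here.

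Gabrb2, the beta2 subunit, was rare, with 66 UMIs in 59 of 3855 neurons. Nefh neurons held 33 of these, at 9.72 CPM (6.69–13.6), 6.78 times the level in the other matched neurons (3.78 to 12.5; log2 ratio 2.76). In neurons that met exactly 1 condition the log2 ratio was 4.14, and that of Cd34 neurons was −1.56 in place of 0.27. Trpm8 neurons had 8 UMIs and Cd34 neurons 11, at 3.77 and 3.55 CPM. The log2 ratio of Trpm8 neurons was 0.35 and ran from −0.61 to 1.82 over the settings run, so no direction is read from it. Calca Trpv1 neurons had 1 UMI in 916 cells, and Mrgprd neurons none in 379 (limit 0.792%). Mrgpra3 and Nppb neurons had none either, but their UMI totals were too small to set them apart from Nefh neurons. Glia and red blood cells had no UMI of Gabrb2. Pituitary cells had 5 UMIs in 4 of 546 cells, at 2.86 CPM (0.928–6.67), an interval that holds the levels of Trpm8 and Cd34 neurons.

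Gabrg1, the gamma1 subunit, was found mainly in Nefh neurons, which held 126 of the 155 UMIs in matched neurons, at 37.1 CPM (30.9–44.2), which was 17.9 times the level elsewhere (11.9 to 27.8). Trpm8 neurons came next with 5.19 CPM (2.59–9.28), then Calca Trpv1 neurons with 2.87 (1.57–4.82), and these were not apart. Cd34 neurons had 3 UMIs in 320 cells and Mrgprd neurons 1 in 379. Mrgpra3 and Nppb neurons had none, and the Nefh level was 3.997 and 3.51 times what 3 counts would give in each of them. Glia had 5 UMIs, or 11.8 CPM (3.82–27.4), in 4 of 240 cells (1.67%) and red blood cells had none in 311, while pituitary cells had 1 UMI in 546. A UMI was seen in 14.7% (11.5–18.3) of Nefh neurons, 3.28% of Trpm8 neurons and 1.20% of Calca Trpv1 neurons. After thinning, 18 of 450 Nefh neurons had a UMI, against 1.67% of glia, 0.410% of Trpm8 neurons and 0.328% of Calca Trpv1 neurons. The last 2 shares lay below that of glia, and they were read neither as expression nor as background, since the other non-neuronal cells had less Gabrg1 than glia. Glial genes were more abundant in Nefh neurons (516 CPM summed over 7 genes) than in the other matched groups (166 to 387 CPM), and against 119934 CPM in glia. Without neurons holding 2 or more glial genes the log2 ratio of Gabrg1 in Nefh neurons was 4.20, against 4.16 with them.

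**Figure D1:**
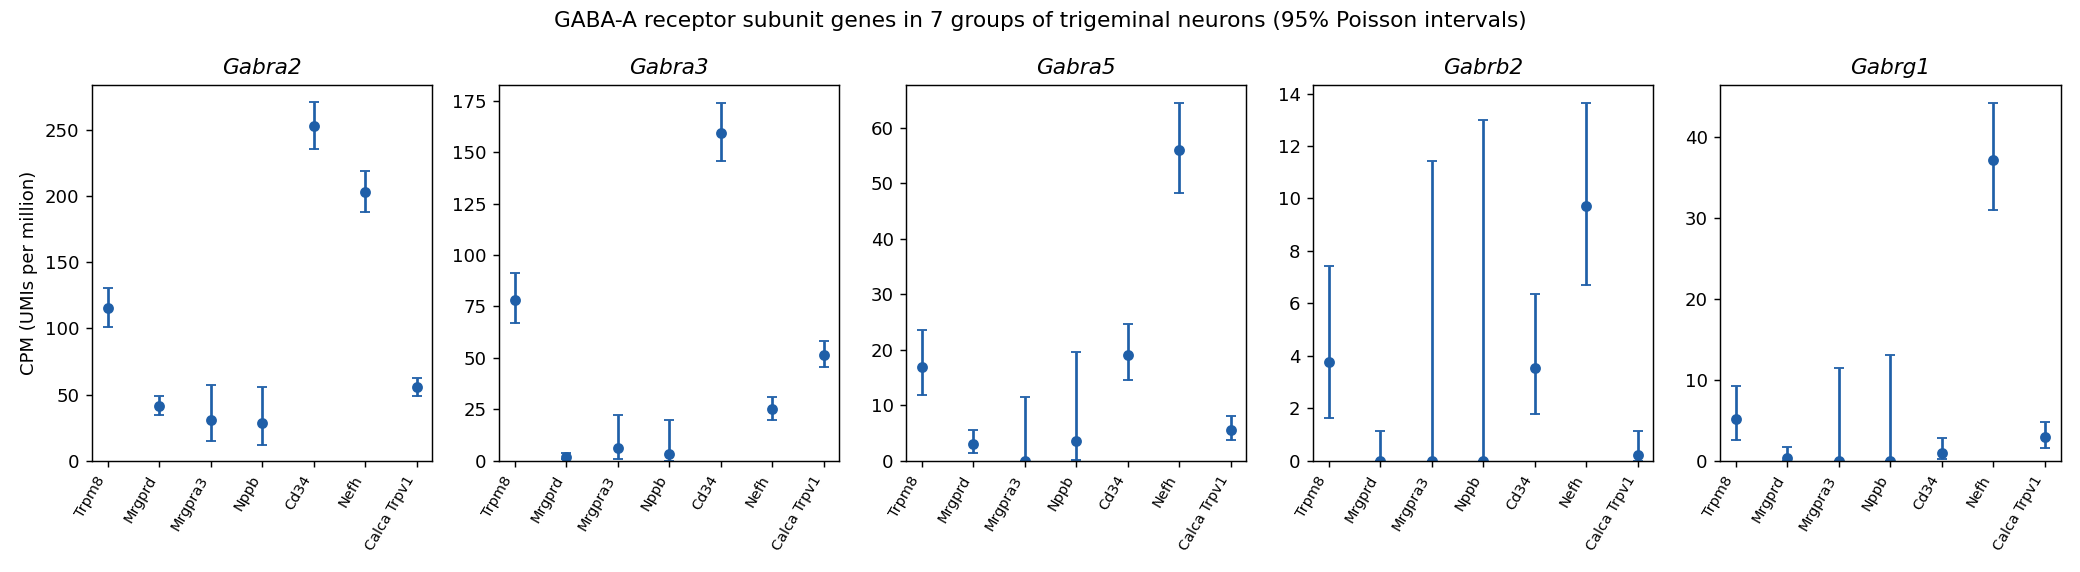
CPM (UMIs per 1000000) of the 5 GABA-A receptor subunit genes in the 7 groups of matched neurons, each gene on its own axis. Points are the level of the summed UMIs and bars exact Poisson 95% intervals; Gabra2 and Gabra3 peak in Cd34 neurons (253 and 159 CPM), and Gabra5, Gabrb2 and Gabrg1 in Nefh neurons (55.9, 9.72 and 37.1 CPM).

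Counted over Gabra2, Gabra3 and Slc12a2, Cd34 neurons were at least 2-fold higher for 2 of 3 (Gabra2 and Gabra3), against 3.40% of all genes, and lower for none, against 7.03%. Nefh neurons were higher for none, against 3.99% of all genes, although Gabra2 passed the line there in 5 alternatives (1.003 to 1.12 on the log2 scale), and lower for Gabra3, against 6.53%. Mrgprd, Mrgpra3 and Nppb neurons were each lower for Gabra2 and Gabra3, against 11.1%, 13.7% and 13.5% of all genes. Mrgprd neurons were higher for Slc12a2 (5.20% of all genes), while Mrgpra3 and Nppb neurons were higher for none (4.09% and 3.83%). Calca Trpv1 neurons were lower for Gabra2, against 6.20%, and higher for none, against 4.34%. Trpm8 neurons had no call, with 2.70% of all genes higher and 11.0% lower there. The spread over the 7 groups, as the range of log2(CPM + 10), was 3.84 for Gabra3 and 2.78 for Gabra2, larger than in 98.3% and 94.6% of the genes with a call, whose median was 0.933. For Slc12a2 it was 1.19, larger than in 66.3%. For Gabra5 it was 2.72. The log2 ratio of Gabra5 was −2.42 (−7.73 to 0.07) in Nppb neurons, on 1 UMI, and was not apart.

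The balance among the 3 alpha subunit genes described here differed between groups of neurons. The UMIs of Gabra2, Gabra3 and Gabra5 summed to 431 CPM in Cd34 neurons, 284 in Nefh neurons, 210 in Trpm8 neurons, 113 in Calca Trpv1 neurons and 46.5 in Mrgprd neurons. In Mrgprd neurons Gabra2 took 89.5% (83.5–93.9) of these UMIs and Gabra3 3.95% (1.46–8.39). In Calca Trpv1 neurons Gabra2 took 49.4% (45.1–53.6) and Gabra3 45.7% (41.5–49.99).

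Cd34 and Nefh neurons, with the highest sums, parted at Gabra3, with 36.96% (34.4–39.6) in Cd34 neurons and 8.81% (7.10–10.8) in Nefh neurons, and at Gabra5, with 4.42% (3.38–5.67) and 19.7% (17.2–22.3). Trpm8 neurons gave 54.7% to Gabra2, 37.2% to Gabra3 and 8.07% to Gabra5. Mrgpra3 and Nppb neurons held only 12 and 10 UMIs of the 3 genes, and most of those, 10 and 8, were Gabra2. Genes differ in how well their transcripts are captured, so these shares are compared across groups and not between genes.

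**Figure D2:**
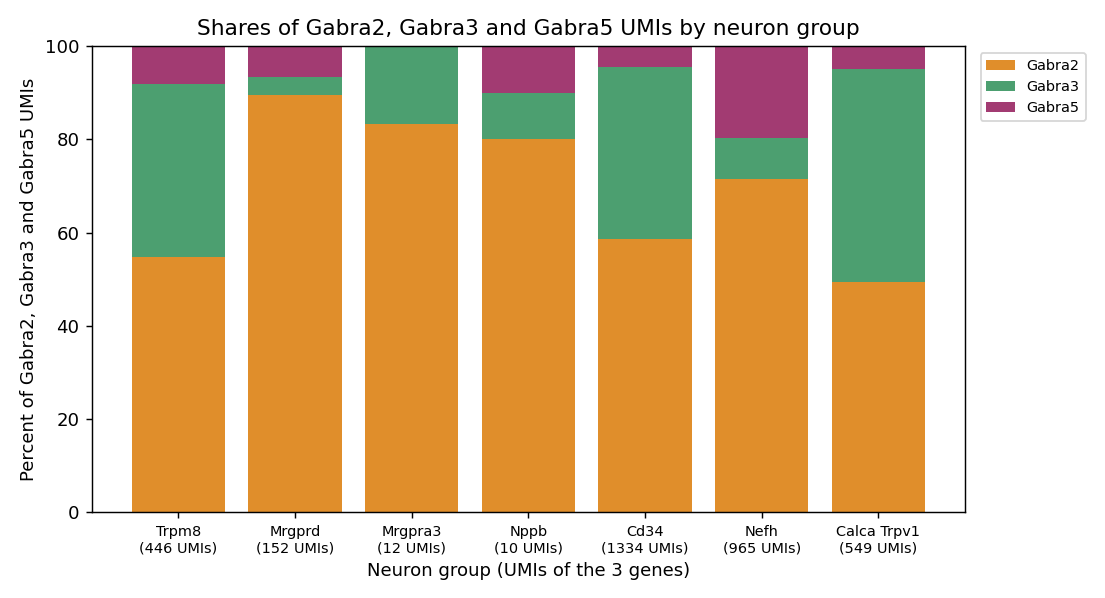
Share of the summed UMIs of Gabra2, Gabra3 and Gabra5 that each gene took, in percent, in each group of neurons, with the number of UMIs under each bar. Gabra3 took 45.7% in Calca Trpv1 neurons and 3.95% in Mrgprd neurons, and the Nppb and Mrgpra3 bars rest on 10 and 12 UMIs.

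Several other subunit genes were scarce in matched neurons, with 75 UMIs of Gabrg3, 58 of Gabra4, 55 of Gabrb1, 6 of Gabrd, 2 of Gabrq, 1 each of Gabrp, Gabrr2 and Gabrr3, 3 of Gabrr1 and 0 of Gabre.

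Nefh neurons were not uniform. When they were divided by Calca, which encodes the neuropeptide CGRP, a division chosen after the values were seen, 89 neurons had 5 or more Calca UMIs and 361 had fewer. All 126 UMIs of Gabrg1 were in the neurons with fewer, in 66 cells, at 51.0 CPM (42.4–60.7). The neurons with more Calca had none, although they were deeper (medians of 6021 and 3789 UMIs), and the level in the others was 15.7 times that of 3 counts. Gabrb2 followed the same direction, with 2 UMIs against 31 and a log2 ratio of −2.53 (−5.64 to −0.56). Gabra2 was at 119 CPM in the Calca-rich neurons and 235 in the others (−0.98, −1.29 to −0.68), and Gabra5 at 41.1 and 61.5 (−0.58, −1.13 to −0.06). Gabra3 (19.5 and 27.1 CPM) and Slc12a2 (57.4 and 56.2 CPM) were not apart. Summed glial genes stood at 408 CPM in the Calca-rich neurons and 556 in the others, and the part of this in the Gabrg1 values was not tested.

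A division by Ntrk2, the BDNF receptor TrkB of myelinated touch neurons, also set Gabrg1 and Gabrb2 apart. The 133 Nefh neurons with Ntrk2 had 53.6 CPM of Gabrg1 and the 317 without 26.3 (log2 ratio 1.03, 0.50 to 1.57). Gabrb2 was at 17.1 and 4.87 CPM (1.81, 0.69 to 3.05), and Gabra5 at 69.3 and 47.2 (0.55, 0.13 to 0.98). By Ntrk3, the receptor TrkC, none of the 5 subunit genes was apart, but Slc12a2 was lower in the 112 neurons with it (42.9 against 65.8 CPM, −0.62, −1.08 to −0.16). Neurons with these receptors were deeper than those without, with medians of 5147 against 3613 UMIs for Ntrk2 and 7119 against 3546 for Ntrk3. Of 450 Nefh neurons, 91 had a UMI of Gabra5, 66 of Gabrg1 and 22 of both. A UMI of Gabrb2 was in 28, and 10 had both Gabrb2 and Gabrg1. Such counts rise with depth, and the neurons with both genes had medians of 11040.5 and 16778 UMIs. Whether the genes go together was not tested.

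**Figure D3:**
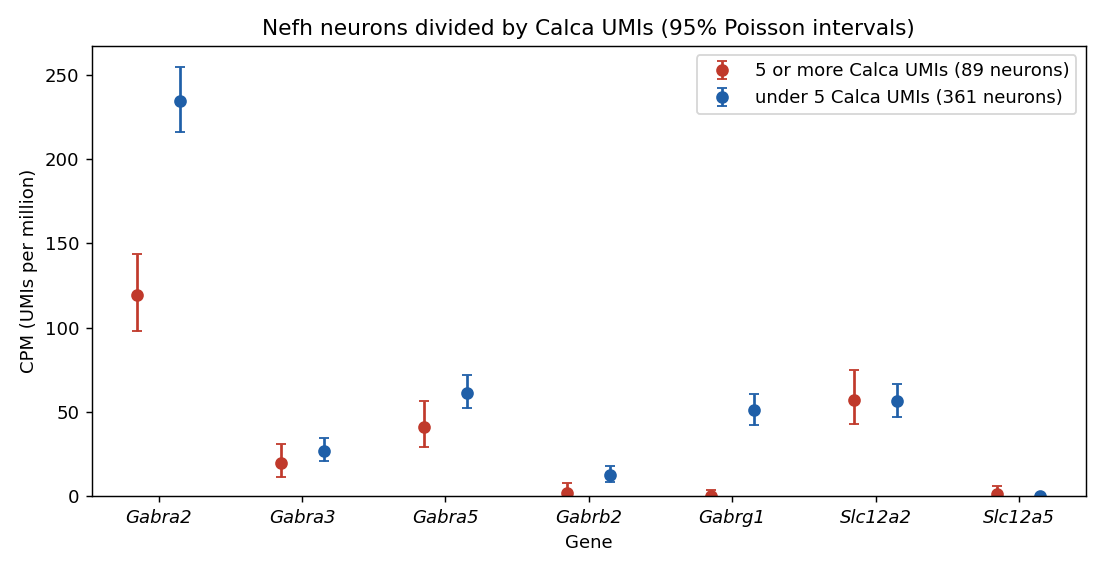
CPM (UMIs per 1000000) of the 7 genes in the 89 Nefh neurons with 5 or more Calca UMIs and the 361 with fewer, with exact Poisson 95% intervals. Gabrg1 is at 0 in the first and 51.0 CPM in the second, while Slc12a2 is at 57.4 and 56.2 CPM.

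Slc12a2, the importer, was found in every group of neurons. Mrgprd neurons had the highest level, 142 CPM (130–156), with a UMI in 208 of 379 neurons (54.9%). Nppb neurons had 102 CPM (68.4–147), Mrgpra3 neurons 89.7 (60.1–129) and Cd34 neurons 81.4 (71.7–92.1). Calca Trpv1 neurons had 62.6 CPM (55.8–70.1), Trpm8 neurons 58.0 (48.2–69.2) and Nefh neurons 56.5 (48.8–65.1). No neighbours in this order were apart except Cd34 and Calca Trpv1 neurons (0.38, 0.13 to 0.62). Set against each group directly, Mrgprd neurons were above all but the Nppb neurons, from which they were not apart (0.48, −0.06 to 1.07). Mrgprd neurons were at the same time among the low groups for Gabra2, Gabra3, Gabra5, Gabrb2 and Gabrg1.

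The ratio of Slc12a2 in Mrgprd neurons to the other matched neurons was 1.11 on the log2 scale (0.94 to 1.27), a call that 5.20% of all genes also had. It was 0.93 when each neuron weighed the same, which is under the 2-fold line. The glia had far more Slc12a2, 470 CPM (407–540), with a UMI in 43.3% of cells at a median of 1442 UMIs. After thinning, the shares were 33.8% in glia, 10.03% in Mrgprd neurons and 4.51% to 10.2% in the other groups, while red blood cells had 0.965%. A second random thinning gave 11.9% in Mrgprd neurons and 4.91% to 12.3% in the other groups. The order changed with the draw, with Mrgpra3 neurons (49 cells) first in one and Nppb neurons (57 cells) in the other, and none was read from it. Glial genes summed to 199 CPM in Mrgprd neurons, within the range of the other groups, and without neurons holding 2 or more glial genes the log2 ratio was 1.21. In unmatched neurons glial genes summed to 8549 CPM, and their 93.8 CPM (84.0–104) of Slc12a2 was given no reading for that reason; the part of glial RNA in it was not tested.

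The level in Trpm8 neurons depended on which neurons were included. The 172 Trpm8 neurons with 5 or more Nefh UMIs had 50.1 CPM of Slc12a2 and the 72 with fewer had 109 (−1.12, −1.73 to −0.49). The former were deeper, with medians of 7638.5 and 2729.5 UMIs. Trpm8 neurons that met no other condition, 95 of 244, had 89.1 CPM, and their log2 ratio to the other matched neurons was then 0.23 in place of −0.53. None of the 5 subunit genes was apart in the division of Trpm8 neurons by Nefh. Calca Trpv1 neurons were also divided at 5 Nefh UMIs. Among the ratios that could be computed there, only that of Gabra2 was apart (0.48, 0.07 to 0.87).

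Slc12a5, the exporter of central neurons, was barely detected. The whole table had 46 UMIs of it in 43 barcodes, of which 12 were neurons by the rule, each with 1 UMI. Matched neurons had 4 UMIs among 17361717, with 2 in Cd34, 1 in Nefh and 1 in Calca Trpv1 neurons. Trpm8 and Mrgprd neurons had none (limits 1.23% and 0.792%). Mrgpra3 and Nppb neurons had none either, with upper limits of 11.4 and 13.0 CPM. The level over all neurons was 0.573 CPM (0.296–1.002), against 11.4 (6.98–17.7) in pituitary cells and 16.8 (3.47–49.2) in endothelium, and 0 in glia and red blood cells. The 120 cells picked by central neuron genes, 64 of which also met the rule for neurons, had only 1 UMI, or 3.02 CPM (0.08–16.8). Of the 12 neurons, 5 had a UMI of Prph or Avil, genes of peripheral sensory neurons. The other 7 had neither, and 3 of the 12 had UMIs of Gad2, the GABA-synthesizing enzyme. Of the 2 Cd34 neurons, 1 had 14 UMIs of Gad2 and none of Prph or Avil. The other, of 46333 UMIs, had 110 of Prph and 30 of Avil beside 1 each of Neurod1 and Zic1.

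**Figure D4:**
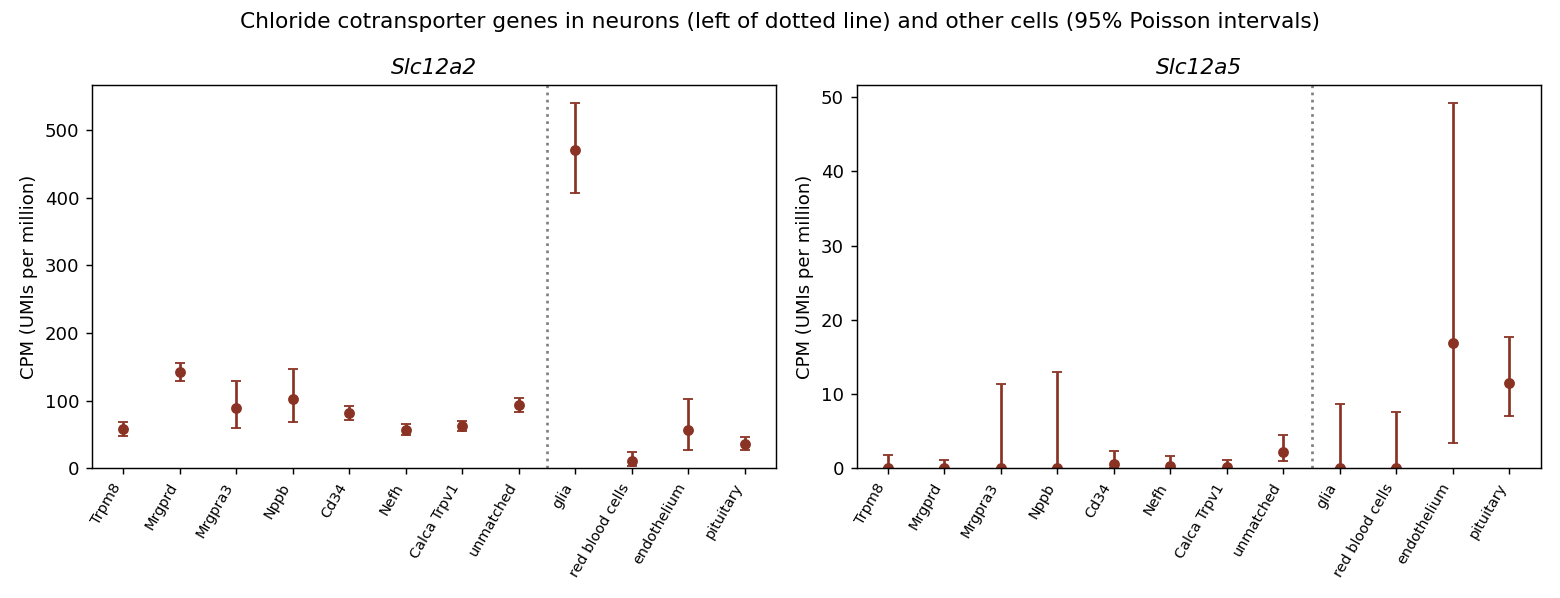
CPM (UMIs per 1000000) of Slc12a2 and Slc12a5 in neurons, left of the dotted line, and in glia, red blood cells, endothelium and pituitary cells, right of it, with exact Poisson 95% intervals. Slc12a2 is at 142 CPM in Mrgprd neurons and 470 in glia. The measured level of Slc12a5 is under 1 CPM in each group of matched neurons, but the upper limits reach 11.4 CPM in Mrgpra3 and 13.0 in Nppb neurons.

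Other genes of GABA signalling and chloride transport were taken from a list of 51, of which 49 were in the table and 19 had 200 or more UMIs in matched neurons. Nlgn2 reached 200 only through the Mrgprd neurons, where it was highest, with 184 UMIs outside them, and the counts are over the other 18. In Trpm8 neurons 0 of the 18 were at least 2-fold higher and 3 lower, against 2.70% and 11.0% of all genes, and in Mrgprd neurons 2 were higher and 1 lower, against 5.20% and 11.1%. In Mrgpra3 neurons 0 were higher and 1 lower (4.09% and 13.7% of all genes) and in Nppb neurons 0 and 1 (3.83% and 13.5%). Both of these lower calls were Slc12a7, on 2 UMIs and 1 UMI, and neither was apart, at −1.66 (−4.71 to 0.20) and −2.47 (−7.78 to 0.01). In Cd34 neurons 1 was higher and 1 lower (3.40% and 7.03% of all genes), in Nefh neurons 0 and 2 (3.99% and 6.53%) and in Calca Trpv1 neurons 0 and 3 (4.34% and 6.20%). With 18 genes, 1 or 2 calls are near these shares. The median log2 ratio of the 18 lay between −0.26 in Trpm8 neurons and 0.18 in Mrgprd neurons, where the medians of all genes were −0.09 and −0.07.

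Gabbr2, a subunit of the metabotropic GABA-B receptor, was at 85.3 CPM in Trpm8 neurons and 237 in Cd34 neurons.

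Abat, the GABA transaminase that breaks GABA down, was at 95.1 CPM in Mrgprd neurons and 14.7 in the other matched neurons (log2 ratio 2.69). Ano3, of the anoctamin family, was at 923 CPM in Mrgprd neurons and 57.3 in Calca Trpv1 neurons. Slc12a7, a potassium-chloride exporter, was at 41.4 CPM in Cd34 neurons and 3.52 (1 UMI) in Nppb neurons. Stk39, the kinase SPAK that activates NKCC1, was at 65.9 CPM in Calca Trpv1 neurons against 149 in the others, and Clcn6, an endosomal chloride transporter, at 18.4 CPM in Trpm8 neurons against 41.7.

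The genes whose level over the 7 groups was most like that of each gene were found by Pearson correlation of log2(CPM + 10) among 8728 genes, as a description over 7 points that share libraries. For Gabra2 they were Ola1 (r = 0.996), Nap1l2 (0.988) and 1810055G02Rik (0.985). The last of these met the UMI minimum for a call only through the Cd34 neurons, where Gabra2 was also highest. Nothing is read from its correlation for that reason. For Gabra3 they were Th, tyrosine hydroxylase (0.984), Arf5 (0.977) and Adprh (0.966). Th had 83.4 CPM in Cd34 neurons, 47.1 in Trpm8 neurons and 0.917 in Mrgprd neurons, while Arf5 ran only from 127 to 203 CPM. For Gabra5 they were Epb4.1 (0.985), Slc35f1 (0.984) and Abcd2 (0.984), and Slc35f1 stood at 51.2 CPM in Nefh neurons and 18.7 in Cd34 neurons. Gabra5 and Slc35f1 met the UMI minimum for a call only through the Nefh neurons, where both were highest. Their likeness was partly set by that minimum, so nothing is read from the correlations of Gabra5. For Slc12a2 they were Tpp1 (0.981), Arhgap1 (0.977) and Lclat1 (0.973), the last with 71.8 CPM in Mrgprd neurons and 15.02 in Nefh neurons.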

How the data were processed

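Per the labels and the study's methods, 9 Drop-seq libraries of dissociated trigeminal ganglia were sequenced, demultiplexed (bcl2fastq 2.17), aligned to mm10 (STAR 2.5.3a) and analysed in Seurat 1.4.0.16. The authors deposited 1 table of raw UMI counts per gene and barcode, without normalization, pooled over runs. No column was left unused (0). Groups, CPM, intervals (95%; floor of 3 counts) and ratios were computed in Python 3.11.15 with numpy 2.4.6, scipy 1.17.1, pandas 2.3.3 and matplotlib 3.10.9. Cells were thinned to 1000 UMIs in 2 random draws, the first of which is reported unless stated. Their seeds were replaced once after earlier draws had been seen, for a reason unrelated to the shares. No doublet caller was run. Glia, red blood cells and endothelium were picked by their marker genes among barcodes with few neuronal genes. Pituitary cells were picked by their marker genes.

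The genes, groups, divisions of groups and lists were chosen with earlier results of these data known. Named from the pathway list were up to 12 genes with the largest ratio (at least 2-fold), and GABA-A subunits by their UMIs; some genes of the pathway and marker lists are not reported here and were left out of the counts; for likeness, the 3 genes with the highest correlation. With all cells in 1 sample, no p-value was computed. Alternative gates, conditions, weights and totals were run.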

Additional observations from a re-analysis of the deposited data

How the results depend on the processing

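No paired analysis was possible because the barcodes do not name the run, and for the same reason no run could be left out in turn. With a minimum of 50 UMIs in place of 200, pairs of gene and group at least 2-fold lower numbered 21 in place of 12, since more genes had a call, and higher pairs 6 in place of 4. These counts include Gabra5, which reached 200 UMIs only through the Nefh neurons, and the added pairs are those of Gabrb2 and Gabrg1, which reached 50 only there (20 and 29 UMIs outside them), so nothing is read from them. Without neurons holding 2 or more glial genes, an alternative chosen after seeing the data, lower pairs numbered 8, with 21 pairs tested in place of 28, since Gabra5 had 185 UMIs and no call. In neurons meeting exactly 1 condition, the log2 ratio to the other matched neurons was 2.33 for Gabra3 in Cd34 neurons, and 3.43 for Gabra5 and 4.14 for Gabrb2 in Nefh neurons. With the UMI minimums of the group genes doubled, the latter were 3.08 and 3.90. With each neuron weighing the same, Gabra5 in Nefh neurons was 3.21 and Slc12a2 in Mrgprd neurons 0.93, the only ratio past 2-fold to fall under that line in the alternatives run, in each of which 20 to 22 of 22 such ratios could be computed. In the other direction, Gabra2 in Nefh neurons, just under the line as reported, passed it in 5 alternatives (1.003 to 1.12). In neurons meeting exactly 1 condition, Gabra5 in Cd34 neurons fell from 0.04 to −2.43 and Gabrb2 there from 0.27 to −1.56, while Gabrg1 in Trpm8 neurons was at −1.60 in place of −0.87. With each neuron weighing the same, Gabrb2 and Gabrg1 in Trpm8 neurons were at 1.82 and −1.25. The ratios of Slc12a5, on 4 UMIs, also crossed the line. The causes of these shifts were not tested. Of 441 levels under the alternatives, 27 moved beyond their counting interval. A second random thinning moved 4 of 49 shares. Precision was lowest in the Mrgpra3 and Nppb neurons, of which there were only 49 and 57, and where 3 counts correspond to 9.28 and 10.6 CPM.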
